A study of Mus musculus with 8 samples.

Results

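The 46 genes described here encode the constitutive proteasome of the mouse, its assembly factors and its non-inducible activators and inhibitor. They were picked from the 55401 genes of the deposited count table by symbol: every Psma, Psmb, Psmc, Psmd, Psme, Psmf and Psmg gene with a number, plus Pomp and Adrm1. The inducible genes Psmb8, Psmb9, Psmb10, Psme1 and Psme2 were left out. The rule uses symbols and no measured value, but it was set with earlier results of these data known. The genes fell into 7 core alpha subunits, 7 core beta subunits, 10 subunits of the base, 8 of the lid, 8 assembly factors, 3 activators or inhibitors and 3 genes that are tissue-restricted or copies. RNA was measured in haematopoietic stem cells (HSCs) that had been sorted, roughly 3000 at a time, out of the marrow of 8-week-old C57BL/6 mice. The study has 4 control libraries, from mice with floxed Nynrin alleles and no Cre (Nynrin fl/fl, labelled wild type). There were 4 Nynrin CKO libraries, from Nynrin fl/fl mice that also carried Tie2-Cre. The Tie2 promoter drives Cre in endothelium as well as in blood cells, and no control carried Cre, so what Cre does and what loss of Nynrin does cannot be told apart. The labels do not say whether each library came from its own mouse, and each p-value refers only to how far these libraries vary, which may be technical.

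The proteasome is the barrel-shaped protease that degrades proteins tagged with ubiquitin. Its core particle is built from stacked rings: outer rings of alpha subunits gate the entry, and inner rings of beta subunits hold the cutting sites. A regulatory particle caps the core. The base of that cap carries a ring of ATPases (Psmc genes) that unfolds the substrate, and the lid removes ubiquitin. Dedicated chaperones build core and base and do not stay in the finished particle. HSCs are known for a low rate of protein synthesis and for sensitivity to misfolded protein, so proteasome genes are of interest in them.

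Total counts ran from 36942835 to 56437299 per library. Nynrin itself was at 41.3, 47.5, 30.1 and 30.4 CPM (counts scaled to a common library size with TMM factors) in controls 1 to 4 and at 12.7, 12.3, 8.24 and 8.22 CPM in Nynrin CKO 1 to 4, all below every control (log2 fold change -1.85 ± 0.22 SE, edgeR quasi-likelihood adjusted p = 0.0345). The libraries fell into sets that cut across the groups. Control 4 and Nynrin CKO 3 and 4 had 176.9 to 216.0 CPM summed over 2001 chemosensory receptor genes. The other 5 had 872.5 to 1449.0 CPM. They are called here the libraries with few and with more receptor reads. Xist counts were 177719 and 224087 in controls 3 and 4 and 245 to 471 in all other libraries. No Nynrin CKO library was thus in the high Xist class, and the class was not balanced between the groups. The Xist class used as a term in a later fit is this split. Within Nynrin CKO the libraries resembled each other in pairs: the biological coefficient of variation between them (from edgeR's common dispersion of 2 libraries) was 0.243 for 1 and 2 and 0.245 for 3 and 4, against 0.813 to 0.822 across these pairs. Among controls 1 to 3 it was 0.325 to 0.353. The labels do not say whether the libraries of a pair share a mouse or a pool, and this was not tested. Of the HSC markers, Kit (1300 to 2360 CPM) and Hlf (90.7 to 144 CPM) were present in every library, and Cd3e and Ly6g did not exceed 1.69 CPM in any. Tek, which encodes Tie2, was at 42.5, 38.6, 25.2 and 35.9 CPM in controls and at 149, 145, 163 and 153 CPM in Nynrin CKO (log2 fold change 2.10, edgeR adjusted p = 0.0062); the promoter of this gene drives the Cre.

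Of the 32 subunits of core, base and lid 16 were called higher in Nynrin CKO HSCs, 8 of 14 in the core, 7 of 10 in the base and 1 of 8 in the lid. These calls were lost without any one of 7 of the 8 libraries and when similar libraries were summed. All 46 genes had enough counts to be tested. Of these 18 rose, 0 fell and 28 did not pass (edgeR quasi-likelihood test, Benjamini-Hochberg adjusted over 27573 genes, threshold 0.05). That is 39.1% of members higher, where 2.22% of all tested genes were called higher and 0.588% lower. At an unadjusted p under 0.05 edgeR put 40 members higher and 0 lower. DESeq2 called 28 members higher and 0 lower (6.22% and 3.56% of all tested genes, with 36 and 1 members at an unadjusted p under 0.05), and limma-voom called 21 and 0 (1.97% and 0.526% of all genes, with 40 and 0). The log2 fold change was above 0 for 44 of 46 members, with a median of 0.52. The median of all tested genes was -0.09, and that of the 16789 tested genes with a mean of at least 1 CPM was 0.09. All 4 Nynrin CKO libraries lay above all 4 controls for 37 members (80.4%), compared with 9.52% of all tested genes, and for 0 members they lay below, compared with 4.83%. For any such gene the two-sided exact permutation p is 0.0286, the smallest that 4 against 4 can give.

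**Figure D1:**
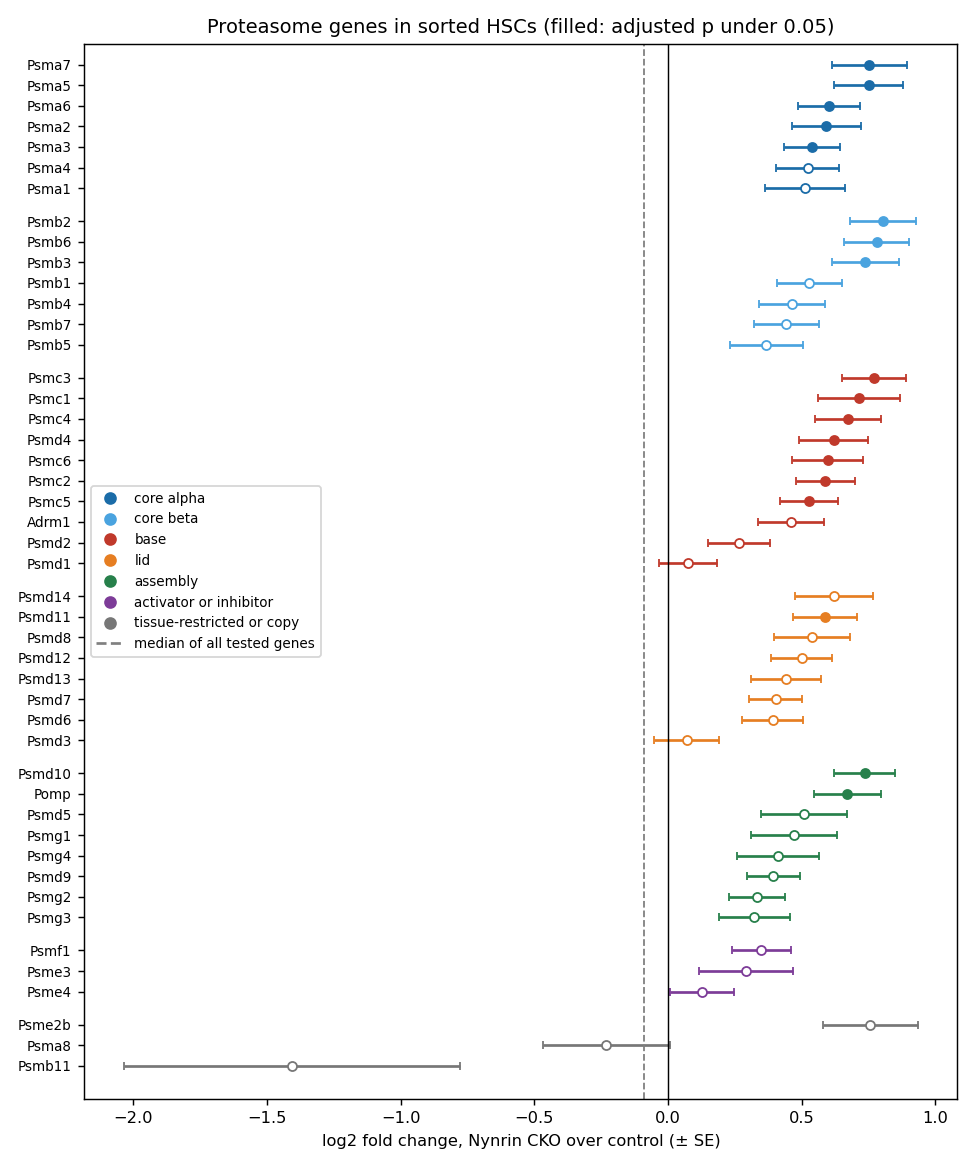
Log2 fold change of Nynrin CKO over control for each of the 46 genes, grouped by class, with standard errors. Filled points passed the edgeR test at an adjusted p of 0.05, and the dashed line marks the median of all tested genes, -0.09. The 32 subunits of core, base and lid lie between 0.07 and 0.81.

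The adjusted p of the 18 genes lay between 0.0345 and 0.0492, close to the threshold, so the number called moved with each choice made in the fit. No member was called lower in any alternative, and the share of all tested genes is given beside each count of members called higher. With RLE factors 0 members were higher (0.0471% of all genes higher, 0.0798% lower), under upper-quartile scaling 8 (0.816% and 0.91%), and under total-count scaling 1, Psmc3 (0.214% and 1.15%). The member median was 0.47 with RLE factors and 0.24 with total counts, where the median of all genes was -0.14 and -0.34. With no filter on low counts 0 members were higher (0.0639% and 0.031%), with a mean of at least 1 CPM 22 of 45 (4.07% and 2.79%), and without robust estimation 15 (1.56% and 0.471%). With the Xist class as a term 0 members were higher (0.0145% and 0.0218%), and 0 once the dependence on transcript length and GC was taken out (0.00725% in either direction). With Nynrin CKO 1 and 2 summed to 1 sample and 3 and 4 to another, 0 members and 0 genes of the table were called, and the smallest adjusted p of a member was 0.443 by edgeR. Of the members 24 were then at an unadjusted p under 0.05 (52.2%, compared with 9.2% of all genes tested).

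The count of members called also moved when a library was left out. Without control 4 28 members were higher (3.73% of all genes higher, 0.803% lower). Without any one of the other 7 libraries 0 were. All genes called higher were then 0.0102%, 0.0137% and 0.00697% without control 1, 2 and 3, and 0.00332%, 0.0204%, 0.00329% and 0.00659% without Nynrin CKO 1, 2, 3 and 4. All genes called lower were 0.0139% without control 3 and 0.0034% without Nynrin CKO 2, and none without the other 5. The member median stayed between 0.43 and 0.61 in these 8 fits.

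In the alpha ring 5 of 7 subunits rose, where 2.22% of all tested genes were called higher. The whole class spanned a log2 fold change of 0.51 to 0.75 with a median of 0.59. Psma5 was at 154, 127, 138 and 185 CPM in controls 1 to 4 and at 248, 242, 267 and 261 CPM in Nynrin CKO 1 to 4. The groups did not overlap, and control 4 was the nearest to the Nynrin CKO range. Its log2 fold change was 0.75 ± 0.13 (SE, edgeR adjusted p = 0.0391). Psma5 has a processed copy, Psma5-ps, counted separately at 6.57% of its own counts.

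Psma7 was at 134, 106, 123 and 167 CPM in controls and at 229, 214, 220 and 230 CPM in Nynrin CKO (0.75 ± 0.14 SE, edgeR adjusted p = 0.0408). Again control 4 was the highest control. Psma3 was at 134, 112, 126 and 140 CPM in controls and at 191, 173, 186 and 194 CPM in Nynrin CKO, a log2 fold change of 0.54. The groups did not overlap. Psma6 was at 130, 106, 112 and 123 CPM in controls and at 170, 156, 193 and 194 CPM in Nynrin CKO (0.60). Here control 1 was the highest control, and Nynrin CKO 3 and 4 were the highest. Psma2 also rose (0.59). It shares part of its region with a same-strand record, AW209491, that holds 19.7% as many counts.

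Psma4 and Psma1 did not pass. Psma4 had a log2 fold change of 0.52 (edgeR adjusted p = 0.0501) and Psma1 of 0.51 (adjusted p = 0.0925). Psma1 was at 213, 194, 229 and 263 CPM in controls and at 272, 281, 364 and 367 CPM in Nynrin CKO. Its Nynrin CKO values split, with libraries 1 and 2 only just above control 4.

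In the beta ring the non-catalytic Psmb2 and Psmb3 and the catalytic Psmb6 rose, and 4 of 7 did not pass. Over all tested genes 2.22% were called higher. The class median was 0.53 and the class range 0.37 to 0.81. Psmb2 had the highest log2 fold change of all 46 members. It was at 129, 111, 131 and 158 CPM in controls and at 218, 225, 245 and 238 CPM in Nynrin CKO, 1.75 times the control mean (0.81 ± 0.12 SE, edgeR adjusted p = 0.0345). Every Nynrin CKO library was above every control. Psmb3 was at 116, 90.9, 110 and 133 CPM in controls and at 191, 175, 193 and 190 CPM in Nynrin CKO (0.74, edgeR adjusted p = 0.0382).

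The catalytic subunits differed in how far they were apart. Psmb6 carries the caspase-like site and lies on chromosome 11 from 70525367 to 70527858. It was at 172, 141, 159 and 198 CPM in controls and at 299, 274, 293 and 286 CPM in Nynrin CKO. The groups were far apart, with a log2 fold change of 0.78 ± 0.12 (SE, edgeR adjusted p = 0.0345). Psmb7, with the trypsin-like site, was at 115, 84.4, 96.1 and 114 CPM in controls and at 143, 127, 140 and 145 CPM in Nynrin CKO. The groups did not overlap, but the difference of 0.44 did not pass (adjusted p = 0.0812). Psmb7 overlaps Nek6 on the other strand, which holds 53.23% as many counts, and whether counting used the strand is not known here. Psmb5, with the chymotrypsin-like site that proteasome inhibitor drugs bind, was at 114, 88.8, 111 and 130 CPM in controls and at 133, 127, 153 and 160 CPM in Nynrin CKO. Control 4 lay above Nynrin CKO 2, and the log2 fold change of 0.37 did not pass (edgeR adjusted p = 0.177, exact permutation p = 0.0571). Within each library, where no scaling enters, the ratio of Psmb6 to Psmb5 counts was 1.43 to 1.59 in controls and 1.78 to 2.25 in Nynrin CKO. That pair was chosen after its values were seen, so the ratio is a description.

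**Figure D2:**
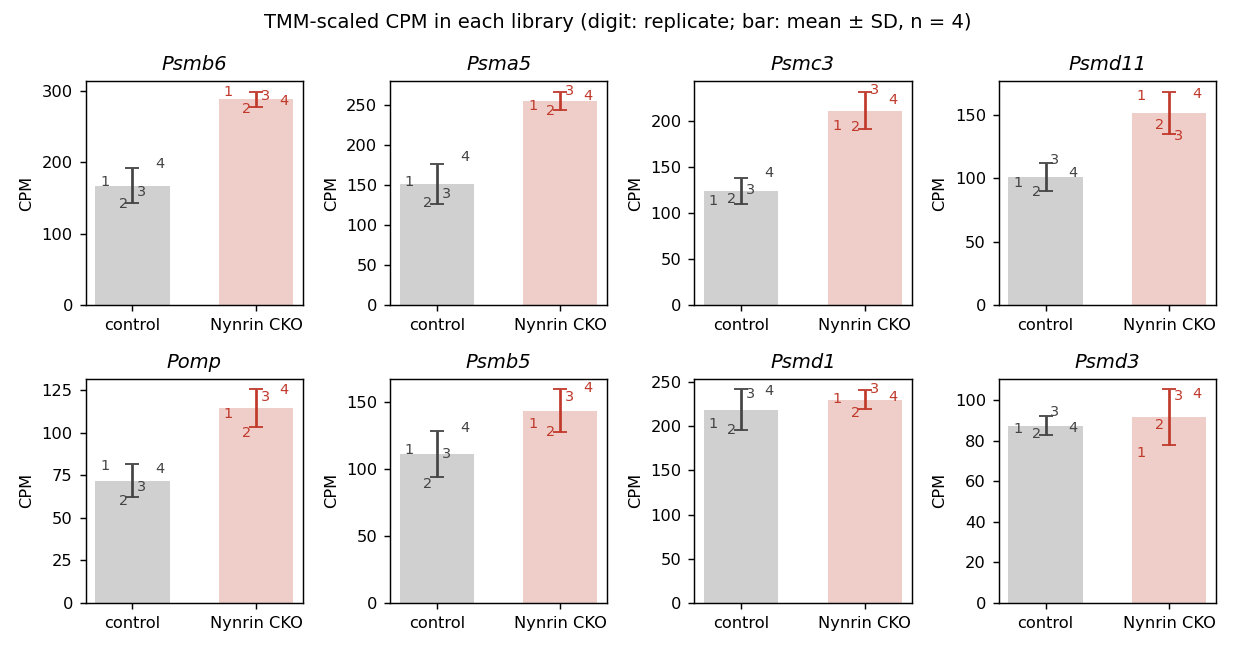
CPM of 8 members in each library, with the digit giving the replicate, the bar the mean and the error bar the SD (n = 4 each). In Psmb6, Psma5, Psmc3, Psmd11 and Pomp the groups do not overlap, and in Psmb5, Psmd1 and Psmd3 they do.

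Proteasome genes are known targets of Nfe2l1 (also called NRF1), which binds antioxidant response elements. The letters TGACNNNGC of that element were searched on both strands in RefSeq promoter windows of GRCm38.p6, from 250 bases before to 50 bases after the start. Of the 46 members 38 had a window. The letters occurred in 7 of 38 (18.4%) and in 14.0% of the 27025 symbols with a window, so the share was near that of all promoters. Among the 16 genes that rose and had a window, 2 held them, Psmb6 and Psmc6. The shorter CCAAT box occurred in 14 of 38 (36.8%) and in 41.1% of all symbols. It was held by 9 of the 16 genes that rose, a count that was not tested. The sequence before the start is shown for Psmb6, Psmc6 and Psmb5. Psmb5, the core subunit with the lowest log2 fold change, holds the letters TGACNNNGC as well. Capitals mark the match to them, on the reverse strand in Psmc6. The windows are chr11:70525107-70525356 (plus strand) for Psmb6, chr14:45329574-45329787 (plus strand) for Psmc6 and chr14:54618023-54618245 (minus strand) for Psmb5.
Psmb6: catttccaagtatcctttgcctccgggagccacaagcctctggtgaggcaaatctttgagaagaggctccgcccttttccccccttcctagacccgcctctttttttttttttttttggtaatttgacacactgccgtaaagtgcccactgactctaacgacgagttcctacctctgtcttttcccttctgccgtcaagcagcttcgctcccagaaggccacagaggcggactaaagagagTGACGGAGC
Psmc6: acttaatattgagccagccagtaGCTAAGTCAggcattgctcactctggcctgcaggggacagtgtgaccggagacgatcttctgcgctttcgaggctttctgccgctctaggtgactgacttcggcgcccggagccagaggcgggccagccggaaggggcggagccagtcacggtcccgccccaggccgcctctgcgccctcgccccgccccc
Psmb5: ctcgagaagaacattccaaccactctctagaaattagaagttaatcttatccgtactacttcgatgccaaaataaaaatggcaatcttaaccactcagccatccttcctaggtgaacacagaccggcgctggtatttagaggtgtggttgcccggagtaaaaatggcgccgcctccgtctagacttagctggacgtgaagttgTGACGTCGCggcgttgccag
The match begins 9 bases before the RefSeq start in Psmb6, 47 in Psmb5 and 227 in Psmc6. The log2 fold changes of these genes were 0.78, 0.37 and 0.60. A match is a description of the window and not a measured binding site.

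In the base all 6 ATPases rose, where 2.22% of all tested genes were called higher. The log2 fold changes of the ATPases ran from 0.53 to 0.77 with a median of 0.64. All 6 had groups that did not overlap, as did 9.52% of all tested genes with Nynrin CKO higher. Psmc3 (chromosome 2, 91054009 to 91066369) was at 113, 115, 125 and 143 CPM in controls and at 195, 193, 234 and 223 CPM in Nynrin CKO. The lowest Nynrin CKO library was well above control 4, the highest control (0.77 ± 0.12 SE, edgeR adjusted p = 0.0345). Psmc3 overlaps Slc39a13 on the other strand, which holds 11.68% as many counts. Psmc4 was at 103, 99.1, 105 and 130 CPM in controls and at 159, 160, 187 and 191 CPM in Nynrin CKO (0.67, edgeR adjusted p = 0.0407). Psmc2 was at 91.6, 83.9, 97.3 and 108 CPM in controls and at 144, 130, 144 and 155 CPM in Nynrin CKO (0.59, adjusted p = 0.0408). In both, as in Psmc3, control 4 was the highest control and the groups did not overlap. Psmc1 (0.71), Psmc6 (0.60) and Psmc5 (0.53) rose as well.

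The other base subunits were mixed. The ubiquitin receptor Psmd4 rose (0.62 ± 0.13 SE, edgeR adjusted p = 0.0457). It was at 97.6, 98.4, 96.4 and 132 CPM in controls and at 161, 149, 182 and 159 CPM in Nynrin CKO, so control 4 alone came near the Nynrin CKO range. The second ubiquitin receptor, Adrm1, had a log2 fold change of 0.46 (adjusted p = 0.0738) with groups that did not overlap. The large scaffold subunits did not pass. Psmd2 was at 219, 212, 241 and 281 CPM in controls and at 300, 290, 280 and 276 CPM in Nynrin CKO (0.27, adjusted p = 0.256). Psmd1 was at 202, 196, 237 and 240 CPM in controls and at 231, 215, 242 and 233 CPM in Nynrin CKO (0.07, adjusted p = 0.795), and its groups overlapped widely. Within each library the summed counts of the 6 ATPases were 1.45 to 1.58 times those of Psmd1 and Psmd2 in controls. They were 1.99 to 2.27 times in Nynrin CKO, a pairing chosen after the values were seen. Transcripts of the ATPases have 1316 to 2234 bases, and those of Psmd2 and Psmd1 have 2961 and 3112. Over all expressed genes the log2 fold change fell with transcript length, and the part of length in this ratio was not tested. The sign for Psmd1 depended on scaling: its log2 fold change was -0.03 under upper-quartile scaling and -0.20 under total-count scaling.

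In the lid 1 of 8 subunits rose by edgeR, where 2.22% of all tested genes were called higher. For 7 of 8 the groups did not overlap, with Nynrin CKO higher, as for 9.52% of all tested genes. DESeq2 called 5 and limma-voom 2, where they called 6.22% and 1.97% of all tested genes higher. The class median was 0.47. The subunit that rose was Psmd11, a scaffold protein whose level is known to be high in embryonic stem cells. It was at 96.5, 88.9, 114 and 104 CPM in controls and at 165, 142, 133 and 166 CPM in Nynrin CKO (0.59 ± 0.12 SE, edgeR adjusted p = 0.0442). Control 3, not control 4, was its highest control.

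Psmd14, the enzyme that cuts ubiquitin chains off the substrate, had the highest log2 fold change of the lid but did not pass (0.62 ± 0.15 SE, edgeR adjusted p = 0.0533). It was at 112, 102, 119 and 142 CPM in controls and at 168, 153, 209 and 201 CPM in Nynrin CKO. The groups were apart, with Nynrin CKO 3 and 4 above 1 and 2. Psmd12 (0.50, adjusted p = 0.0514), Psmd8 (0.54), Psmd13 (0.44), Psmd7 (0.40) and Psmd6 (0.39) also had every Nynrin CKO library above every control without passing. Reads of Psmd13 lie in a region shared with Sirt3 on the other strand, which had 162.9% as many counts.

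Psmd3 stood at the bottom of the lid. It was at 85.8, 83.5, 94.1 and 86.3 CPM in controls and at 74.2, 87.7, 102 and 103 CPM in Nynrin CKO. Nynrin CKO 1 was the lowest of all 8 libraries and 4 the highest, and the log2 fold change was 0.07 ± 0.12 (SE, edgeR adjusted p = 0.834). Its sign changed to -0.04 under upper-quartile scaling, to -0.22 under total-count scaling and to -0.03 without the dependence on length and GC.

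Of the 8 assembly factors 2 rose, Psmd10 and Pomp, where 2.22% of all tested genes were called higher. The class had a median of 0.44 with all 8 values above 0. Psmd10 (gankyrin), a chaperone of the base ATPases on the X chromosome, was at 40.0, 34.3, 38.2 and 45.4 CPM in controls and at 71.7, 65.1, 66.7 and 59.4 CPM in Nynrin CKO. Every Nynrin CKO library was above every control (0.74 ± 0.11 SE, edgeR adjusted p = 0.0345). Pomp, which helps the beta ring form and core particles join, was at 80.3, 59.9, 68.3 and 78.9 CPM in controls and at 111, 100, 121 and 125 CPM in Nynrin CKO (0.67 ± 0.13 SE, adjusted p = 0.0408). Controls 1 and 4 were its highest controls, and the groups did not overlap.

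The chaperones that pair up to assemble the alpha ring, Psmg1 to Psmg4, had log2 fold changes of 0.47, 0.33, 0.32 and 0.41, and none passed (edgeR adjusted p = 0.144, 0.113, 0.218 and 0.177). Psmg3 was the lowest of the class, at 19.3, 15.5, 20.1 and 21.4 CPM in controls and at 24.0, 26.2, 23.8 and 21.6 CPM in Nynrin CKO. Control 4 and Nynrin CKO 4 were nearly equal, and its log2 fold change was -0.03 without the dependence on length and GC. The base chaperones Psmd9 (0.39, adjusted p = 0.0645) and Psmd5 (0.51, adjusted p = 0.117) had groups that did not overlap and did not pass.

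No activator or inhibitor passed by edgeR, DESeq2 or limma-voom, and 1 of 3 was at an unadjusted p under 0.05 by each tool. Over all tested genes these tools called 2.22%, 6.22% and 1.97% higher, so 0 of 3 is near the background. Psmf1 (PI31), named as an inhibitor of the core in vitro, was at 69.7, 65.0, 67.0 and 82.9 CPM in controls and at 93.9, 97.6, 83.1 and 87.7 CPM in Nynrin CKO (0.35, edgeR adjusted p = 0.112). Control 4 and Nynrin CKO 3 were nearly level. Psme4 (PA200), a nuclear cap that replaces the regulatory particle, was at 22.7, 21.2, 19.0 and 25.8 CPM in controls and at 23.1, 24.4, 24.5 and 24.9 CPM in Nynrin CKO (0.13, adjusted p = 0.663). Its groups overlapped, and its log2 fold change was -0.14 with total counts. Psme3 (PA28 gamma), the nuclear activator, had a log2 fold change of 0.29 (adjusted p = 0.438).

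Of the remaining 3 genes edgeR and limma-voom called 0, with 1 at an unadjusted p under 0.05, and DESeq2 called 1 higher. The shares of all tested genes called higher were 2.22% by edgeR, 1.97% by limma-voom and 6.22% by DESeq2, so 0 of 3 is near them. Psma8, the alpha subunit of the testis, was at 12.9, 9.28, 8.76 and 12.1 CPM in controls and at 9.02, 13.3, 6.85 and 7.55 CPM in Nynrin CKO (-0.23, edgeR adjusted p = 0.696). Psmb11, the beta subunit of thymic epithelium, had 12 to 63 counts per library. It was at 0.652, 1.5, 1.2 and 0.363 CPM in controls and at 0.266, 0.392, 0.375 and 0.361 CPM in Nynrin CKO (log2 fold change -1.41, edgeR adjusted p = 0.265), with control 4 inside the Nynrin CKO range. Psme2b, a copy of the inducible Psme2, was at 30.0, 23.4, 23.7 and 38.4 CPM in controls and at 56.9, 50.9, 43.1 and 44.5 CPM in Nynrin CKO (0.76, edgeR adjusted p = 0.0540). The groups were apart, but Psme2b lies inside the regions of Gm12185 and 9930111J21Rik1 on the same strand, with 84.4% and 116.7% as many counts, and reads could fall on any of these records.

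**Figure D3:**
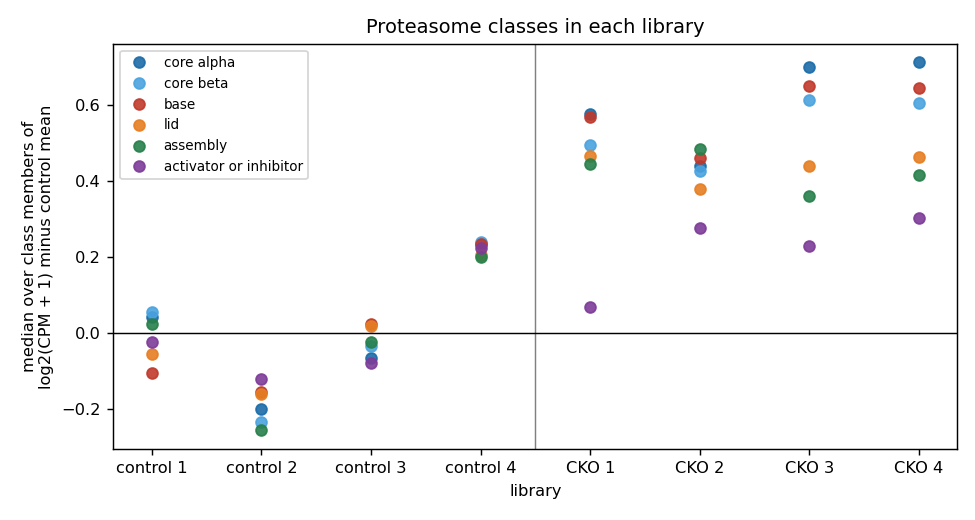
Median over the members of each class of log2(CPM + 1) minus its mean over the 4 controls, for each of the 8 libraries. In control 4 the 6 classes lie at 0.20 to 0.24, and in Nynrin CKO the core, base and lid lie at 0.38 to 0.71.

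Over all 46 members the median of log2(CPM + 1) minus the control mean was -0.01, -0.19, -0.02 and 0.22 in controls 1 to 4. It was 0.49, 0.44, 0.58 and 0.59 in Nynrin CKO 1 to 4. Control 4 was thus the highest control, and every Nynrin CKO library lay above it. The classes did not share 1 order among Nynrin CKO libraries: alpha subunits were at 0.58, 0.44, 0.70 and 0.71 and assembly factors at 0.44, 0.49, 0.36 and 0.42. Activators and the inhibitor were at 0.07 in Nynrin CKO 1, below their 0.23 in control 4. The order depended on scaling by TMM: of all unscaled counts, the 46 genes took 0.496%, 0.447%, 0.525% and 0.560% in controls 1 to 4 and 0.675%, 0.644%, 0.560% and 0.562% in Nynrin CKO 1 to 4, where Nynrin CKO 3 and 4 only reached control 4. TMM factors were 0.805 in Nynrin CKO 3 and 4 and 1.023 to 1.157 in the other 6 libraries.

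Within the libraries with more receptor reads (controls 1 to 3, Nynrin CKO 1 and 2) the median log2 fold change of the members was 0.52, and 44 of 46 were above 0. The median of all tested genes there was -0.04. A separate fit of these 5 libraries called 24 members higher, with 4.04% of all genes called higher and 2.64% lower. With the library set as a term in the fit of all 8 libraries 29 members rose, with 4.43% of all genes called higher and 1.48% lower. Within the libraries with few receptor reads (control 4, Nynrin CKO 3 and 4) the median was 0.33, and 42 of 46 were above 0, with a median of all tested genes of 0.06. There is 1 control in that set, so these are values without a test. The difference was smaller there for Psmg1 (0.73 with more receptor reads, 0.02 with few), Psmf1 (0.51 and 0.04) and Psmc1 (0.90 and 0.29). It was of like size for Psmc3 (0.72 and 0.68) and Pomp (0.61 and 0.64).

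Levels of different subunits can be compared only per length. On the scale of mean CPM per kilobase of the longest coding transcript, the 32 subunits of core, base and lid had a median of 76.6 in controls and spanned 35.4 to 210. The core stood above the cap: medians were 115 for alpha, 128 for beta, 69.2 for base and 48.4 for lid subunits in controls. In Nynrin CKO they were 171, 176, 94.7 and 67.1. Psmb6 was the highest of the 32 in both groups, at 210 and 361 CPM per kilobase. Psma2 and Psma3, whose longest coding transcripts have 2911 and 2846 bases, lay lowest among alpha subunits at 55.3 and 45.0, and a shorter transcript in use would raise these values. Psmd1 moved from rank 18 to rank 25 of 32 and Psmd3 from 30 to 32, while Psmc4 moved from 17 to 12. Ratios of summed counts within a library were 1.40 to 1.65 for core over base in controls and 1.58 to 1.63 in Nynrin CKO, so they overlapped. For core over lid they were 2.31 to 2.62 and 2.69 to 2.74, which did not overlap. For core over assembly factors they were 4.75 to 5.08 and 4.92 to 5.70, which did. Over all expressed genes the log2 fold change fell with transcript length, and the part of length in these ratios was not tested.

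**Figure D4:**
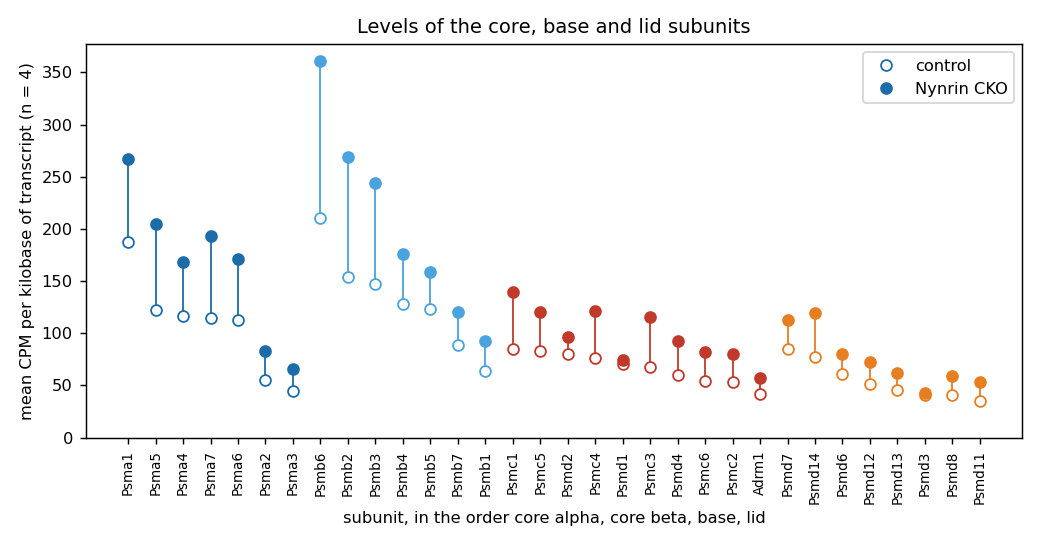
Mean CPM per kilobase of the longest coding transcript for the 32 subunits of core, base and lid, open in control and filled in Nynrin CKO (n = 4 each). Psmb6 is highest in both groups (210 and 361), and the points of Psmd1 and Psmd3 nearly coincide.

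Members have short transcripts, and short transcripts were higher in Nynrin CKO in general. The longest coding transcript had a median of 1586 bases over the members and 2911 bases over expressed genes (mean of at least 1 CPM). Sorted by length, the expressed genes were cut into 5 groups of about the same number. In the shortest group, up to 1526 bases, all genes had a median of 0.39 on the log2 scale with 8.16% called higher. The 20 members in that group had a median of 0.53 (0.32 to 0.81), and 9 rose. From 1527 to 2446 bases all genes had a median of 0.25 with 5.28% higher, and 14 members had a median of 0.53 with 5 higher. From 2447 to 3444 bases the medians were 0.08 for all genes and 0.39 for 7 members, of which 3 rose. In the next group, up to 4915 bases, they were -0.10 and 0.51 for 3 members, among them Pomp. Psmb11 was not among expressed genes. Psme4, alone in the longest group, was at 0.13 with a group median of -0.18. Without the dependence on length and GC, fitted in each library on expressed genes, the member median was 0.34. The median of all tested genes, which include genes under a mean of 1 CPM, was -0.13.

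**Figure D5:**
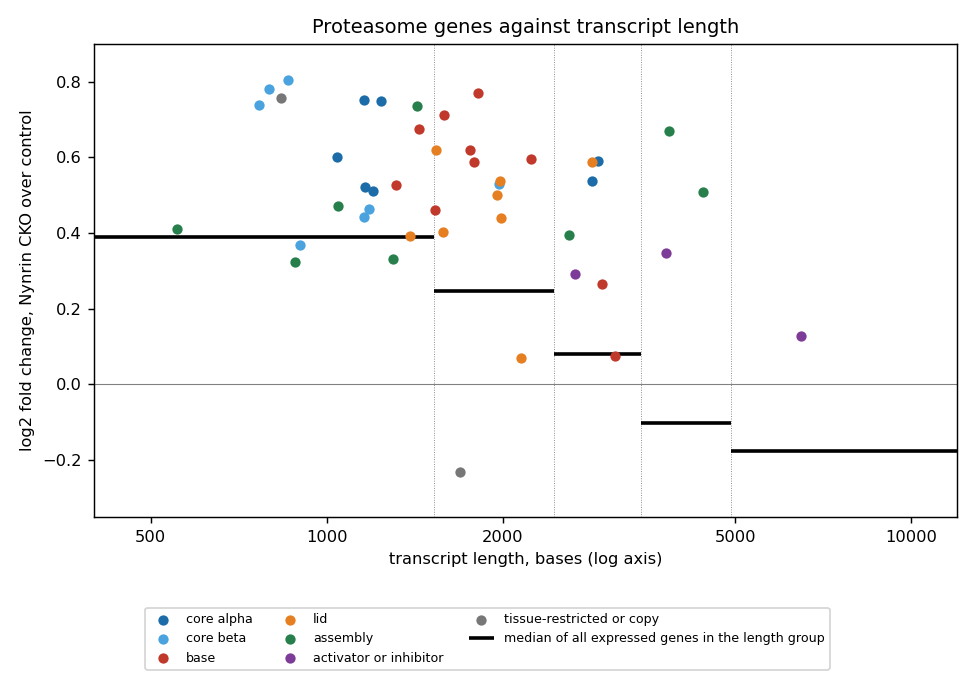
Log2 fold change of members against the length of the longest coding transcript (log axis), with horizontal bars for the median of all expressed genes in each of 5 length groups. Psmb11, at -1.41, lies outside the plotted range; the bars fall from 0.39 for the shortest to -0.18 for the longest group.

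Of 21 partners and regulators of the proteasome edgeR called 0 higher and 0 lower, with 3 higher and 2 lower at an unadjusted p under 0.05. Over all tested genes 2.22% were called higher and 0.588% lower, and 18.9% were at an unadjusted p under 0.05, so in a list of this length these counts are near the background. DESeq2 called 2 higher and 1 lower, and limma-voom 0. Their median was 0.10. Nfe2l2, a stress-response transcription factor, averaged 88.7 ± 9.35 CPM over controls, against 118 ± 7.06 CPM over Nynrin CKO libraries (SD, n = 4 each), with a log2 fold change of 0.42 (edgeR adjusted p = 0.0678). Sem1, the smallest lid subunit, which the symbol rule does not take in, went from 43.8 ± 8.75 to 64.0 ± 1.61 CPM (SD, n = 4 each; 0.55, edgeR adjusted p = 0.0697). Nfe2l1, the transcription factor of proteasome genes, averaged 49.9 ± 16.9 CPM over controls, against 27.4 ± 16.2 CPM over Nynrin CKO libraries (SD, n = 4 each). Its groups overlapped and the log2 fold change of -0.87 did not pass (edgeR adjusted p = 0.337).

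Of 10 genes of ubiquitin supply and of the p97 unfoldase edgeR called 0, with 3 higher and 1 lower at an unadjusted p under 0.05, where the same shares over all genes apply (2.22%, 0.588% and 18.9%) and a count of 0 is near them. DESeq2 called 2 higher and 1 lower, and limma-voom 0. The polyubiquitin gene Ubb averaged 1405 ± 196 CPM over controls, against 3112 ± 1329 CPM over Nynrin CKO libraries (SD, n = 4 each; 1.15, edgeR adjusted p = 0.0685). Its log2 fold change was 0.57 within the libraries with more receptor reads and 1.38 within those with few. Uba1, the main ubiquitin-activating enzyme, lay below all controls in Nynrin CKO, at 327 ± 14.9 and 254.5 ± 12.2 CPM (SD, n = 4 each; -0.36, edgeR adjusted p = 0.0766).

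The 5 inducible genes that the choice leaves out had log2 fold changes of 0.53 to 0.86. By edgeR 3 rose, Psmb8, Psmb10 and Psme2, with adjusted p of 0.0411, 0.0345 and 0.0379, close to the threshold. DESeq2 called 5 higher and limma-voom 4. Over all tested genes 2.22% were called higher by edgeR, 6.22% by DESeq2 and 1.97% by limma-voom. The ratio of Psmb8, Psmb9 and Psmb10 counts to those of the catalytic subunits they replace was 1.14 to 1.38 in controls and 1.33 to 1.61 in Nynrin CKO, so the groups overlapped.

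The genes whose log2(CPM + 1) followed the mean of the 46 members most closely over the 8 libraries were Sdhb (Pearson r = 0.998), Acsl5 (0.997), Lsm4 (0.997), Tmed10 (0.996) and Rpp30 (0.996). These correlations were picked as the highest over all tested genes and over libraries that share the group difference, so they only describe a like pattern. Sdhb, an iron-sulphur subunit of respiratory complex II, was at 135, 113, 135 and 180 CPM in controls and at 228, 234, 261 and 263 CPM in Nynrin CKO. It shared with the proteasome genes the high control 4.

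Sums over markers of other cells were apart between the groups for some cell types. Those of progenitors and of mast cells and basophils overlapped. Beside these results the following sums were measured. Over 10 genes of multipotent and myeloid progenitors, the sum was 1170 to 1700 CPM over the controls. It was 1620 and 1650 CPM in Nynrin CKO 1 and 2 and 5960 and 5940 CPM in 3 and 4. All 10 progenitor genes had log2 fold changes above 0, and 2 rose. For 12 neutrophil genes the sums were 16.4 to 144 CPM among controls, against 147 to 366 CPM in Nynrin CKO, and for 11 erythroid genes 1150 to 1480 and 2160 to 2530 CPM. For 9 mast cell and basophil genes the sums were 79.4 to 140 and 114 to 216 CPM, for 10 monocyte and macrophage genes 78.5 to 104 and 118 to 319 CPM, for 9 B cell genes 43.7 to 56.1 and 108 to 198 CPM, and for 10 T and NK cell genes 76.0 to 120 and 182 to 364 CPM. Cd3d, Cd3g and Ncr1 stayed under 1 CPM in every library. Sums over 15 HSC genes (3430 to 4400 and 3990 to 4450 CPM) and 8 endothelial genes (224 to 317 and 237 to 324 CPM) overlapped, as did those over 8 genes used to gate out mature lineages (338 to 393 and 379 to 427 CPM). The part of other cells in the proteasome result was not tested, and in bulk RNA a change in the cells present and a change of RNA per cell cannot be told apart.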

How the data were processed

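Per the file headers, the table the authors deposited holds a count of reads for every gene and library; its values are whole and unscaled. The submitters' processing notes name the build mm10. No source used here names the aligner, the counting tool, its strand setting or how reads with several matches were treated. Per the labels' protocols, Trizol was used for RNA, and libraries were made from 5 ng cDNA.

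The labels gave each library its group and number. Counts were tested with edgeR 4.0.16 (R 4.3.3): filterByExpr, TMM factors, a robust quasi-likelihood F-test and Benjamini-Hochberg adjustment over 27573 genes at 0.05. CPM use the same factors. Single genes were also compared by two-sided exact permutation of log2(CPM + 1) over 70 assignments. No list was tested as a set. DESeq2 1.42.0 and limma 3.58.1 were alternatives, with other scalings, filters, a replicate term, terms or subsets for library set (split at 300 CPM of receptor reads) and Xist class (100 CPM), pairs of libraries summed, each library left out, and a spline on transcript length and GC content removed. Members, lists and alternatives were chosen with earlier results of these data known.

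Members named with values in every library were up to 12 with the smallest p among those that passed, the highest and lowest of each class, Psmb5, Psmb6, Psmb7 and Pomp; other members were added to complete a class. From other lists the 2 genes with the smallest p and Nfe2l1 were named, and the 5 genes most alike. Psma8, Psmd2, Psmd4, Psmd11 and Tek were given in full after their values were seen. Length and GC came from the longest coding transcript of each gene in GENCODE M21, on the same build, where 51920 of 55141 shared gene records had identical coordinates. Members with another record in their region that holds at least 10% of their counts are named where described.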

Additional observations from a re-analysis of the deposited data

Results flagged for a closer look

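Over 92 groups of 4 library values of the members, 3 had a library far from the other 3, where chance flags about 1 in 20 groups. Psmd4 was at 132 CPM in control 4 and at 96.4 to 98.4 CPM in the other controls. Psmc1 was at 241 CPM in Nynrin CKO 1 and at 214 to 218 CPM in the other 3. Psmg4, an assembly chaperone, was at 17.4 CPM in Nynrin CKO 3 and at 20.8 to 21.4 CPM in the other 3.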

How the results depend on the processing

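The adjusted p-values of the members lie close to the threshold, so counts of calls moved far more than fold changes. Members called higher were 0 with RLE factors, with no filter on low counts, with the replicate block, with the Xist class, with Nynrin CKO libraries summed in pairs and without the dependence on length and GC. Upper-quartile factors gave 8, total counts 1, and the count was 29 with the library set as a term and 28 with DESeq2. No alternative called a member lower. Genes called higher and lower over the table were 13 and 22 with RLE factors, 225 and 251 under upper-quartile scaling, 59 and 318 under total-count scaling, 33 and 16 with no filter, 1221 and 408 with the library set as a term, 1311 and 857 in the libraries with more receptor reads, 4 and 6 with the Xist class, 0 and 0 with pairs summed, 2 and 2 with the length and GC trend removed, and 1714 and 981 with DESeq2. With a mean of at least 1 CPM 475 genes were called lower. With the replicate block 0 genes were called higher and 0 lower. Same-numbered libraries did not deviate together in every pair (r of 0.20, 0.24, -0.36 and 0.47 for numbers 1 to 4), so the numbers were not taken as pairs. Leaving out 1 library gave 0 to 28 members higher and 0 lower, and 1 to 1129 genes higher and 0 to 243 lower.

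The medians of all members and of the 6 classes other than the restricted genes were above 0 in every alternative. With total counts they were 0.24 for all members, 0.32 for alpha, 0.26 for beta, 0.31 for base, 0.20 for lid, 0.19 for assembly and 0.008 for activators. With the length and GC trend removed they were 0.34, 0.42, 0.34, 0.38, 0.29 and 0.23 in the same order up to assembly. With the Xist class they were 0.59 for assembly and 0.43 for activators. In the libraries with few receptor reads they were 0.33 for all members, 0.35 for base, 0.33 for lid, 0.22 for assembly and 0.042 for activators. Leaving out 1 library gave 0.43 to 0.61 for all members, 0.46 to 0.64 for alpha, 0.41 to 0.61 for beta, 0.51 to 0.67 for base, 0.40 to 0.57 for lid, 0.34 to 0.57 for assembly and 0.18 to 0.42 for activators. The cause of these shifts was not tested.

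Among members given by the naming rule, 5 changed sign under at least 1 alternative. Psmd1 was at -0.031 by the upper-quartile scaling, -0.20 by total counts, -0.020 with a mean of at least 1 CPM and -0.014 in the libraries with few receptor reads. Psmd3 was at -0.037, -0.22 and -0.028 under the first 3 of these, at -0.125 in a fit of the libraries with more receptor reads and at -0.028 without the length and GC trend. Psme4 was at -0.14 by total counts, -0.015 without control 3 and -0.064 in the libraries with few receptor reads. Psmg3 was at -0.032 without the length and GC trend, and Psmb11 at 0.018 in the libraries with few receptor reads. With 12 to 63 counts per library Psmb11 was too shallow for a firm value.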
